A study of Mus musculus with 21 samples.

Results

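The transcriptomes compared here are those of CD4+ T cells sorted 24 h and 12 h after a low (0.8 µg) dose of peptide. The comparison takes the 3 libraries of the 0.8 µg 24 h group and the 3 libraries of the 0.8 µg 12 h group, chosen by their labels alone, which is 6 of the 21 samples of the study. All groups, the control included, were made from Tg4 Tiger Nr4a3-Tocky mice, whose T cells bear a transgenic receptor that recognises myelin basic protein (MBP) peptide and which also carry an Il10-GFP reporter and a Timer reporter of Nr4a3 expression. Mice were immunised s.c. with the 4Y form of the MBP peptide without adjuvant, at 0.8 µg or 80 µg, and splenic CD4+ T cells were sorted at 4 h, 12 h or 24 h, with 3 biological replicates in each of the 7 groups. Per the study's methods the sort took Blue+Red- cells at 4 h, Blue+Red+ cells at 12 h and Blue-Red+ cells at 24 h. A Timer gate for the control group is not given in the sources used here. Time after immunisation and the Timer gate therefore changed together and cannot be told apart in any result below. The ages of the mice were not given in the sources used here, and the cells of the 12 h and 24 h libraries had to carry red Timer protein, so their values describe cells that had signalled and not the whole CD4+ population. The libraries at 12 h came from 2 female mice and 1 male mouse (replicate 3) and those at 24 h from 1 female mouse (replicate 1) and 2 male mice, as read from sex-linked transcripts.

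Nr4a3 is an immediate target of T cell receptor signalling, and the Nr4a3-Tocky mouse uses it to drive a fluorescent Timer protein that is blue when newly made and matures to red. A cell that is blue and red is signalling persistently or has done so recently, whereas a cell that is red alone has stopped making the reporter. A naive T cell that meets its antigen leaves quiescence: it lets go of the genes that keep it circulating through lymph nodes, makes cytokines and costimulatory receptors, expands its nucleolus and biosynthetic machinery, and only then copies its DNA and divides. The comparison of 24 h with 12 h therefore follows activated T cells from a stage at which the reporter was still being made to a later stage at which it was not.

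The depth of the 2 groups was alike, with library totals of 3134516 to 4265658 counts at 12 h and 3384571 to 4114620 counts at 24 h, and the number of genes with a count was 13182 to 13640 at 12 h and 14125 to 14286 at 24 h. The abundant transcript Gm42418, which overlaps ribosomal RNA sequence, took 17% to 25.7% of counts at 12 h and 23.3% to 26.1% at 24 h, and the mitochondrial ribosomal RNA mt-Rnr2 took 2.74% to 2.92% and 4.99% to 5.28%. Within the 12 h group replicate 3 stood apart in heat shock genes (Hspa1b at 244 normalised counts against 9.8 and 0.752 in replicates 1 and 2), and within the 24 h group replicate 3 lay at 3.29 on the second principal component, against 10.4 and 9.94 in replicates 1 and 2. All 14 markers of CD4 T cells were detected in both groups, at a summed level of 2590 to 2660 CPM (counts scaled to a library of 1e6) at 12 h, 4440 to 5010 CPM at 24 h and 5320 to 5640 CPM in the control group. Among markers of other cells, the B cell list was at 66 to 230 CPM at 12 h and 332 to 438 CPM at 24 h, a rise carried mostly by Ighm (36.3 and 277 CPM on average). Other members were at lower levels than Ighm in both groups, such as Igkc (14.6 and 15.8 CPM), Ms4a1 (9.35 and 10 CPM), Cd22 (1.13 and 9.96 CPM), Cd79b (2.5 and 5.18 CPM) and Cd79a (0.307 and 0 CPM). The part of B cells in the results was not tested. The stromal and endothelial list rose from 10.2 to 16.6 CPM to 114 to 159 CPM through Pecam1 alone (13.6 and 133 CPM), with 8 of its 10 members at 0 in every 12 h library and 7 of 10 at 0 in every 24 h library. The summed myeloid list was at 49.4 to 86.6 CPM and 60 to 71.8 CPM, and the NK cell list at 4.79 to 7.98 CPM and 14.5 to 20.4 CPM. The CD8 T cell list of 2 genes was at 43.6 to 51.3 CPM at 12 h and 34.3 to 40.9 CPM at 24 h. On average Cd8a was at 16 and 3.9 CPM and Cd8b1 at 32 and 34.5 CPM. The part of CD8 T cells in the results was not tested.

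A large part of the measured transcriptome differed between 12 h and 24 h. Of 12925 genes tested, 3434 (26.6%) were called, meaning a Benjamini-Hochberg adjusted p under 0.05 and an absolute log2 fold change above 1 after shrinkage towards 0. Of these, 2209 genes (17.1% of those tested) were higher at 24 h and 1225 (9.48%) were lower. The rises were also the larger changes: 462 genes rose by more than 3 on the log2 scale and 51 fell by more than that, and beyond 4 the counts were 145 and 9. The values of the 3 libraries of a group lay wholly above or below those of the other group in 2156 of the 2209 genes that rose, in 1190 of the 1225 that fell and in 3407 of the 9491 that were not called. The median log2 fold change over all genes tested was 0.12, so the values below stand against a baseline slightly above 0. In these bulk libraries a change in the share of cells that make a transcript and a change in the amount made per cell cannot be told apart. Without both libraries that stood apart (replicate 3 at 12 h and replicate 3 at 24 h) 3074 genes were called, 1944 higher and 1130 lower, of which 2787 were among the 3434. That left libraries of female mice only at 12 h.

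In the principal component analysis of the 500 most variable genes, the first component carried 69.8% of the variance and placed the 12 h group at 18.4 ± 1.49 (SD, n = 3) and the 24 h group at -43.3 ± 1.51, a distance of 61.7 that was far larger than either SD. The control group lay at -21 ± 1.03 on the first component and at -39.7 ± 1.68 on the second, which carried 16.9%, so the 24 h libraries lay past the control on the first axis and apart from it on the second. With all genes of the rlog table in place of the 500, the first component held the 24 h group at -67.8 ± 2.17 and the control at -64.4 ± 0.72, much closer together on that axis. The second component of all genes held the 24 h group at 15.1 ± 10.3 and the control at -66 ± 1.5. Over all genes of the rlog table (regularised log2 values), the Euclidean distance between a 12 h and a 24 h library was 117 to 126, whereas libraries within a group were 48.7 to 56.9 apart at 12 h and 49.9 to 55.4 apart at 24 h. The distance between a 24 h and a control library was 93 to 111.

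**Figure D1:**
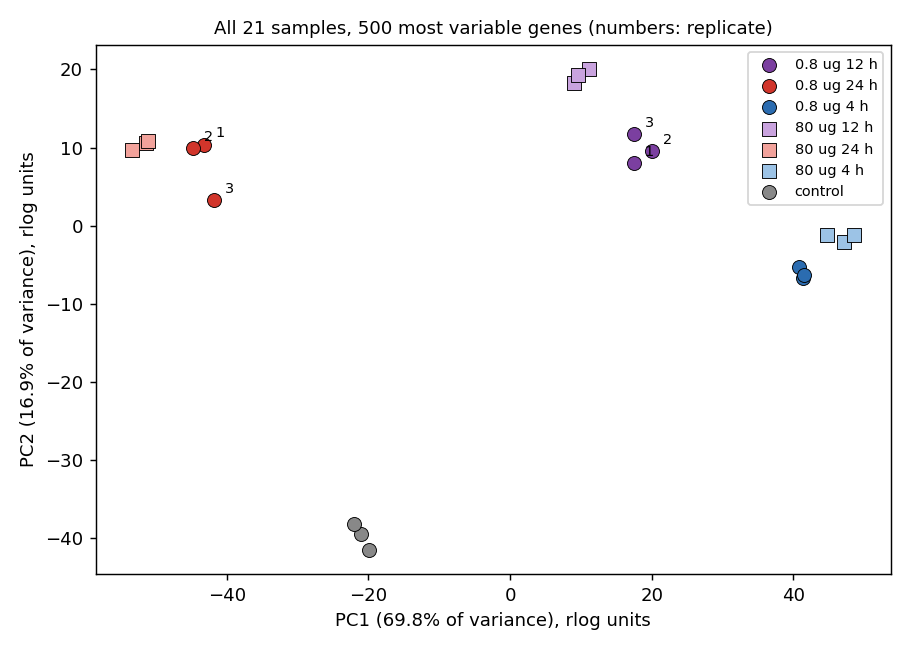
Principal components of the rlog values of the 500 most variable genes in the 21 samples, with the first component (69.8% of variance) on the x axis and the second (16.9%) on the y axis; the replicate numbers are written beside the 0.8 µg 12 h and 24 h points. The 12 h and 24 h groups are separated along the first component, and 24 h replicate 3 lies below its group on the second.

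Lists of genes with a shared role were then counted, and 34 lists covered 359 (16.3%) of the genes that rose and 229 (18.7%) of those that fell. The lists with the highest medians were mitosis genes (69 of 73 tested members higher, 0 lower, median log2 fold change 3.71), replication-dependent histone genes (40 of 51 higher, 0 lower, median 3.40), interferon-stimulated genes (56 of 60 higher, 0 lower, median 2.72) and homing, egress and adhesion genes (20 of 32 higher, 1 lower, median 1.97). The lists with the lowest medians were ribosome biogenesis genes (65 of 74 lower, 0 higher, median -1.69) and cytosolic and mitochondrial chaperones (25 of 32 lower, 0 higher, median -1.33). With edgeR the order of the medians changed, to 5.15 for histone and 3.78 for mitosis genes at the top, and to -1.96 for effector cytokine and cytotoxic genes (-0.96 with DESeq2) and -1.72 for ribosome biogenesis genes at the bottom. With members at the floor of 3 counts set to their bounds, the medians were 3.60 for mitosis, 2.65 for interferon-stimulated and 2.34 for histone genes. The counts stand against the 17.1% of all genes tested that rose and the 9.48% that fell. Cytosolic ribosomal protein genes (1 of 87 called, median -0.09) and oxidative phosphorylation subunits encoded in the nucleus (2 of 78 higher, 1 lower, median -0.14) had few calls, and of 28 genes of the endoplasmic reticulum folding list 1 rose and 4 fell. Further members had an adjusted p under 0.05 but a change too small for a call. These were 23 lower and 6 higher ribosomal protein genes, 21 lower and 5 higher oxidative phosphorylation genes, and 10 lower and 2 higher folding genes.

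**Figure D2:**
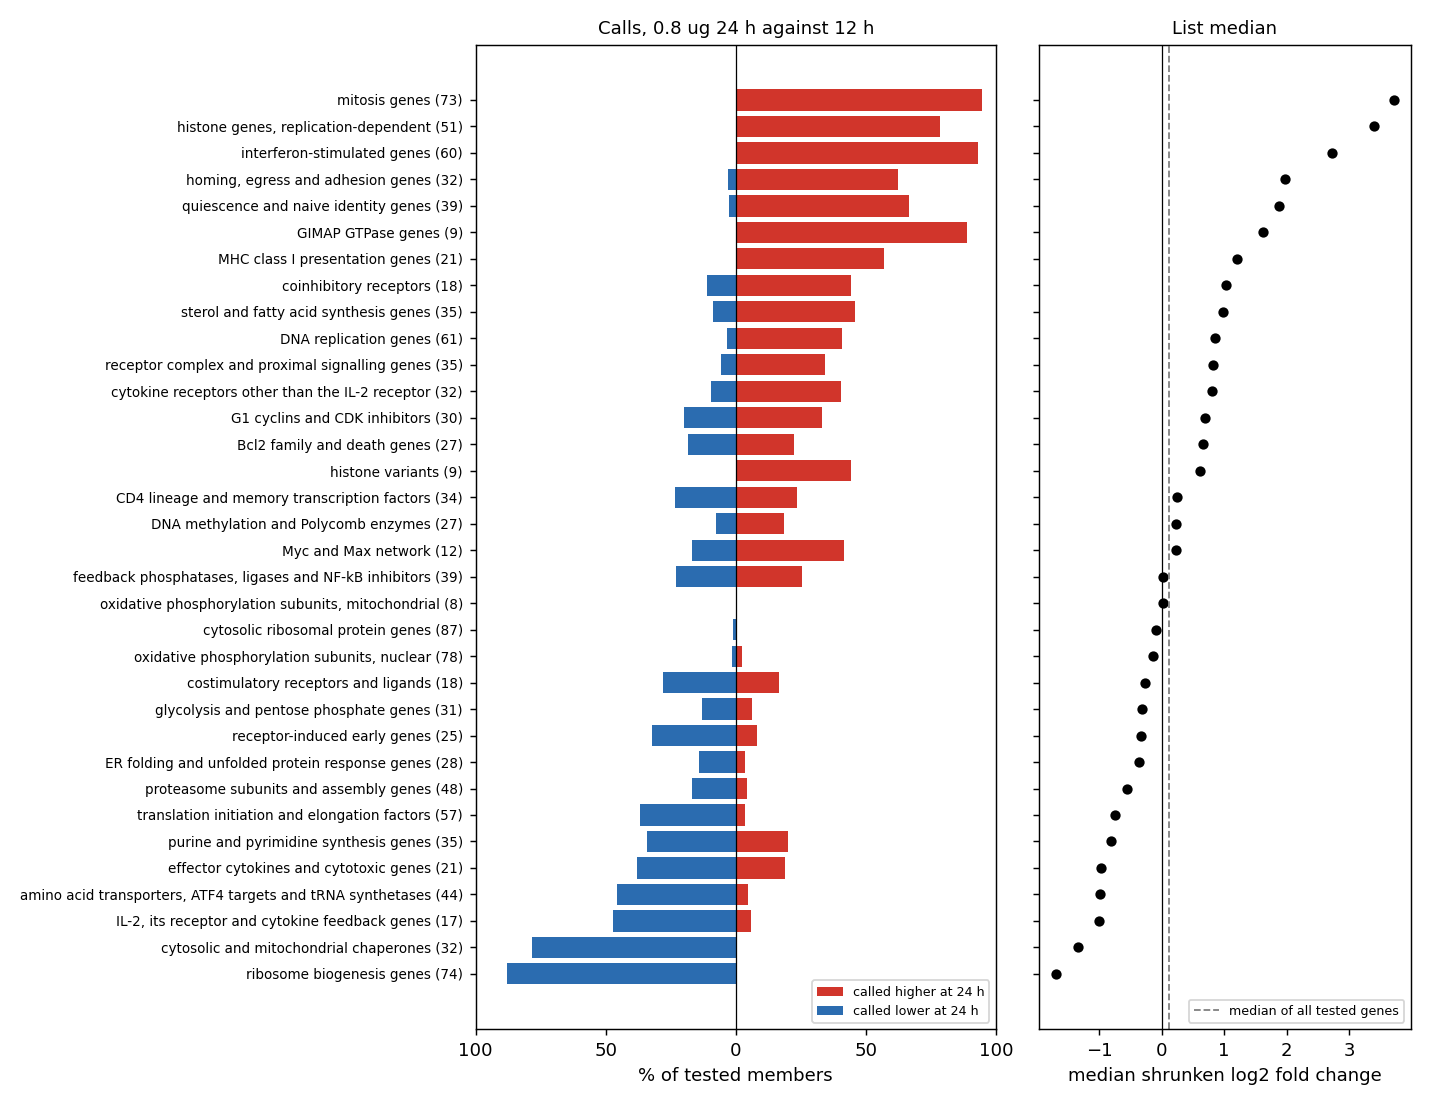
For each list of genes, the share of tested members called higher or lower at 24 h in percent (left, number tested in brackets) and the median log2 fold change of the list (right), with the dashed line at the median of all genes tested (0.12). Mitosis, histone and interferon-stimulated lists are at the top and ribosome biogenesis and chaperone lists at the bottom.

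Of 73 mitosis genes tested 69 rose from 12 h to 24 h, and several of those with the largest rises were near or under the floor at 12 h. Mki67, which encodes the proliferation marker Ki-67 (GRCm38 chr7:135689784-135716361, minus strand), stood at 11.8, 26.3 and 14.1 normalised counts in 12 h replicates 1 to 3 and at 2467, 3028 and 2002 in the 24 h replicates. Every 24 h library was thus far above every 12 h library, and the log2 fold change was 6.68 ± 0.51 (SE, adjusted p = 8.63e-37). Ccnb2, a mitotic B-type cyclin (chr9:70407692-70421547, minus strand), had 0, 3.76 and 0 normalised counts at 12 h and 337, 340 and 178 at 24 h (log2 fold change 6.97 ± 0.54, adjusted p = 1.73e-25). Birc5, the survivin subunit of the chromosomal passenger complex, rose from 8.82, 6.77 and 7.04 to 853, 730 and 513 (6.39 ± 0.32, adjusted p = 3.75e-77). In each of these the groups did not overlap, as the rule for the largest fold changes required, and 24 h replicate 3 was the lowest of its group. The kinesin gene Kif4 was at 0.98, 1.5 and 1.17 normalised counts at 12 h, at or under the floor of 3 counts per library, and at 220, 211 and 142 at 24 h, at least 54.2-fold higher. The centromere protein gene Cenpf (6.47 ± 0.41), the kinetochore scaffold Knl1 (6.18 ± 0.36), the spindle-associated hyaluronan receptor Hmmr (6.27 ± 0.44) and the centromeric histone Cenpa (5.28 ± 0.32) changed to a like degree. Summed over the list, mitosis genes held 11070, 10328 and 10748 normalised counts at 12 h and 46409, 47001 and 38272 at 24 h, against 8139 in the control group. The members that were not called were Bub3, Tuba1b, Tubb5 and Cks2. With the 6 members whose 12 h libraries were all at the floor set to their bounds, the median of the list was 3.60, and 69 members were called also without each library in turn and without both replicates 3.

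Promoters of these genes are shown because mitosis genes moved together and many share a short element, the cell cycle genes homology region (CHR, TTTGAA on either strand). Sequences are from RefSeq (GRCm38.p6), from 250 bases before to 50 bases after the start of the transcript, 5′ to 3′ on the strand of the gene, with matches in capitals. Cyclin B2 is at chr9:70421505-70421804 (minus strand), Cdk1, the mitotic kinase, at chr10:69352863-69353162 (minus strand) and Pclaf, a PCNA-binding factor of replicating cells, at chr9:65890073-65890372 (plus strand). In the Pclaf promoter the capitals mark an E2F-like element instead (TTTCCCGC or TTTGGCGC on either strand).
Ccnb2: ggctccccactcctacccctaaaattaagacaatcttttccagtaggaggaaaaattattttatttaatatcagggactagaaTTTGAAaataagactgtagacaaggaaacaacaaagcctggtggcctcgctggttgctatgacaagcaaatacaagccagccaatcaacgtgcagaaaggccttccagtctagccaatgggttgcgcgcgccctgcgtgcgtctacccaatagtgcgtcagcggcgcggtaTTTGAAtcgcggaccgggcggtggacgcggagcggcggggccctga
Cdk1: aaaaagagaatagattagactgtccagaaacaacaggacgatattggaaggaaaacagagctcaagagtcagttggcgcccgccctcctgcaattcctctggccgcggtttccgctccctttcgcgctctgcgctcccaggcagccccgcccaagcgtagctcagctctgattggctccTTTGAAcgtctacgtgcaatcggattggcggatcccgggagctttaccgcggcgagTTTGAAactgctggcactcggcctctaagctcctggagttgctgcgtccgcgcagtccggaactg
Pclaf: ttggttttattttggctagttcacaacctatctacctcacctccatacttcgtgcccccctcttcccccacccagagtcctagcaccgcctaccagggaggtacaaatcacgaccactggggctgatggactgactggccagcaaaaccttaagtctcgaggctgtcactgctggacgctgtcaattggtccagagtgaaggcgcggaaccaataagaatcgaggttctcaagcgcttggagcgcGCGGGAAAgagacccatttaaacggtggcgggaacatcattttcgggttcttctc
The CHR letters were found in 45 of 66 promoters of the mitosis genes (68.2%), against 12.3% of the 11374 promoters of all genes tested, 16.4% of promoters of genes that rose, 10.5% of promoters of genes that fell and 16 of 51 promoters of the interferon-stimulated genes (31.4%). The E2F-like letters were found in 15 of 57 promoters of DNA replication genes (26.3%) and in 3.12% of those of all genes tested. They were in 2.98% of promoters of genes that rose and in 2.13% of those of genes that fell. The letters TGACGTCA, also searched, were in 1.59% of promoters of genes that rose, 2.66% of those of genes that fell and 3.18% of those of all genes tested. Of the 12924 symbols tested, 8949 had a promoter in the table, and some had several start sites, each counted as a promoter. Cdk1 and the CHR element were chosen after their values were seen. A match is a string of letters and was not tested as a binding site. Cdk1 itself was at 36.3, 31.6 and 30.5 normalised counts at 12 h and 267, 196 and 196 at 24 h (log2 fold change 2.71 ± 0.25, adjusted p = 8.14e-25).

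Of 61 DNA replication genes 25 rose, 2 fell and 34 were not called, with a median of 0.86. Pclaf, which is not on that list, had 6.86, 18.8 and 5.87 normalised counts at 12 h and 1629, 1523 and 1098 at 24 h (6.86 ± 0.27, adjusted p = 3.49e-127). Rrm2, the regulated subunit of ribonucleotide reductase, rose from 23.5, 33.1 and 25.8 to 645, 648 and 448 (4.33 ± 0.25, adjusted p = 5.88e-66). Both genes were without overlap between the groups, which for Pclaf was a condition of the rule for the largest fold changes. Thymidine kinase Tk1 (3.44 ± 0.24), the checkpoint adaptor Clspn (3.54 ± 0.27), Brca1 (2.79 ± 0.31) and thymidylate synthase Tyms (2.13 ± 0.24) rose as well. In contrast the helicase subunit Mcm2 was at 988, 971 and 976 normalised counts at 12 h and 735, 603 and 521 at 24 h, a log2 fold change of -0.65 ± 0.14 (adjusted p = 1.11e-05) that did not pass the threshold of 1, against 196 at 4 h and 119 in the control group. The lower members of the list were Orc2 (-1.01 ± 0.16), of the origin recognition complex, and the uracil glycosylase Ung (-1.03 ± 0.18), and each lost its call without 24 h replicate 3 (values of -0.83 and -0.95 there) and without some other libraries, over which the values ran from -1.10 to -0.83 and from -1.24 to -0.90. The number of higher members was 30 without that library and 34 without both replicates 3, and the summed level of the list in 24 h replicate 3 was 24563 normalised counts against 34583 and 34474 in replicates 1 and 2.

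Replication-dependent histone genes, whose transcripts are made in S phase and mostly lack a poly(A) tail, were almost undetected at 12 h. Hist1h1b, a linker histone, had 0, 3.76 and 1.17 normalised counts at 12 h and 349, 365 and 296 at 24 h (7.06 ± 0.50, adjusted p = 4.43e-31). Hist1h2ab was at 0, 0.752 and 0 in the 12 h and 155, 144 and 110 in the 24 h libraries, at least 38.7-fold higher, though 29.2% of its exon length overlaps an annotated gene on the opposite strand. The summed list was at 162, 173 and 238 normalised counts at 12 h and 4940, 5218 and 3750 at 24 h, against 661 in the control group. Of 69 histone genes listed, 54 passed the filter on low counts and 51 were tested. In 30 of these a group was at the floor, and with those set to their bounds the median fell to 2.34. As libraries were primed on poly(A), the counts of these genes cover only their polyadenylated transcripts. Among histone variants, H2afv (5.01 ± 0.22), H2afz (1.80 ± 0.18) and H1f0 (2.20 ± 0.40) rose with Cenpa, and the other 5 of 9 members were not called.

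Regulators of the G1 phase split into 10 members higher and 6 lower of 30 tested. Ccnd2, the D-type cyclin that drives entry into the cycle, was at 11684, 10522 and 15246 normalised counts at 12 h and at 2306, 2480 and 3033 at 24 h. That fall of 2.25 on the log2 scale (SE 0.11, adjusted p = 4.3e-93) followed a level of 29329 at 4 h. Its kinase partner Cdk6 fell by 1.28 (SE 0.12). The E2F factors changed in both directions: E2f2 rose by 4.98 ± 0.28, from 16.7, 9.78 and 11.7 to 478, 404 and 385, whereas E2f5 fell by 2.31 (SE 0.34) and E2f6 by 1.32 (SE 0.32). The repressors E2f7 and E2f8 were at the floor in all 12 h libraries and were at least 24.2-fold and at least 55-fold higher at 24 h. Ccne2, the E-type cyclin, rose from 7.84, 8.27 and 4.7 to 222, 310 and 120 (4.73 ± 0.40, adjusted p = 2.44e-28).

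Interferon-stimulated genes formed the other large block that rose, and in this block the 24 h libraries differed widely among themselves. Ifit3, an antiviral tetratricopeptide protein (chr19:34583531-34588731, plus strand), had 10.8, 15 and 1.17 normalised counts at 12 h and 270, 428 and 88.8 at 24 h (4.40 ± 0.58, adjusted p = 1.27e-12). Ifi27l2a, a mitochondrial protein gene induced by interferon, rose from 78.4, 60.9 and 43.4 to 1263, 1478 and 748 (4.16 ± 0.28, adjusted p = 7.66e-49), and Ifi213, a member of the PYHIN family of nucleic acid sensors, from 68.6, 24.8 and 11.7 to 748, 932 and 555 (4.19 ± 0.43, adjusted p = 3.42e-21). The lowest 24 h library was replicate 3 and the highest replicate 2 in each of these genes, and the groups did not overlap in any of them. Ifit1bl1, a paralogue of Ifit1, was at 4.9, 3.01 and 0 in the 12 h and 236, 338 and 191 in the 24 h libraries (6.16 ± 0.46, adjusted p = 9.66e-32). The summed list stood at 5748, 4963 and 4404 normalised counts at 12 h and 27046, 34623 and 19181 at 24 h, with 16969 in the control group. The 4 tested members that were not called were Phf11d, Ifi35, Bst2 and Ifi204. Leaving out each library in turn left 54 to 56 members higher.

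The promoters of Ifit3 (chr19:34583279-34583578, plus strand) and Isg15, a ubiquitin-like modifier (chr4:156200769-156201068, minus strand), are shown for the letters of an interferon-stimulated response element (ISRE), searched as TTTC, any 2 bases and TTTC on either strand, with overlapping matches counted and printed in capitals.
Ifit3: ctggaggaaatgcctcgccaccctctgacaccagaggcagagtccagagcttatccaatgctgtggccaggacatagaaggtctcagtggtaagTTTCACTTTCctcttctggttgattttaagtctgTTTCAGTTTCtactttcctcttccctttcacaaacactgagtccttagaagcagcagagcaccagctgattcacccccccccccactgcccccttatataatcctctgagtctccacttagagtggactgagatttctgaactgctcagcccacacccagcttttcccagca
Isg15: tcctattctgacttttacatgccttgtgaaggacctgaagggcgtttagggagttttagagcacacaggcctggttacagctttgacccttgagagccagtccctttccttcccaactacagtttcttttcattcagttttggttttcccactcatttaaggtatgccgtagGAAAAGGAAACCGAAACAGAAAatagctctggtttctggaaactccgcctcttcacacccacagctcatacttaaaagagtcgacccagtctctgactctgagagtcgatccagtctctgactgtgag
The ISRE-like letters occurred in 30 of 51 promoters of the interferon-stimulated list (58.8%), in 3.3% of the promoters of all genes tested, in 6.01% of those of genes that rose and in 2.66% of those of genes that fell. This element and Isg15 were chosen after values were seen. Isg15 was at 195, 198 and 175 normalised counts at 12 h and at 420, 684 and 137 at 24 h, so that 24 h replicate 3 lay below all 12 h libraries although the gene was called (1.09 ± 0.36, adjusted p = 0.00698).

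Genes of antigen presentation on MHC class I, many of which respond to interferon, rose in 12 of 21 cases and fell in 0, with a median of 1.20. The peptide-loading chaperone tapasin, Tapbp, increased from 298, 237 and 290 to 1056, 972 and 883 normalised counts (1.82 ± 0.11, adjusted p = 8.49e-58). The immunoproteasome subunit Psmb9 was at 133, 159 and 121 in the 12 h and 587, 555 and 425 in the 24 h libraries (1.89 ± 0.22, adjusted p = 5.42e-16), and Psmb10, another such subunit, rose by 1.4 ± 0.21. These 2 were the only members of the proteasome list that rose, while 8 of its 48 tested members fell, among them the activator Psme3 (-1.51 ± 0.14). The number that fell was 4 without 24 h replicate 3.

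**Figure D3:**
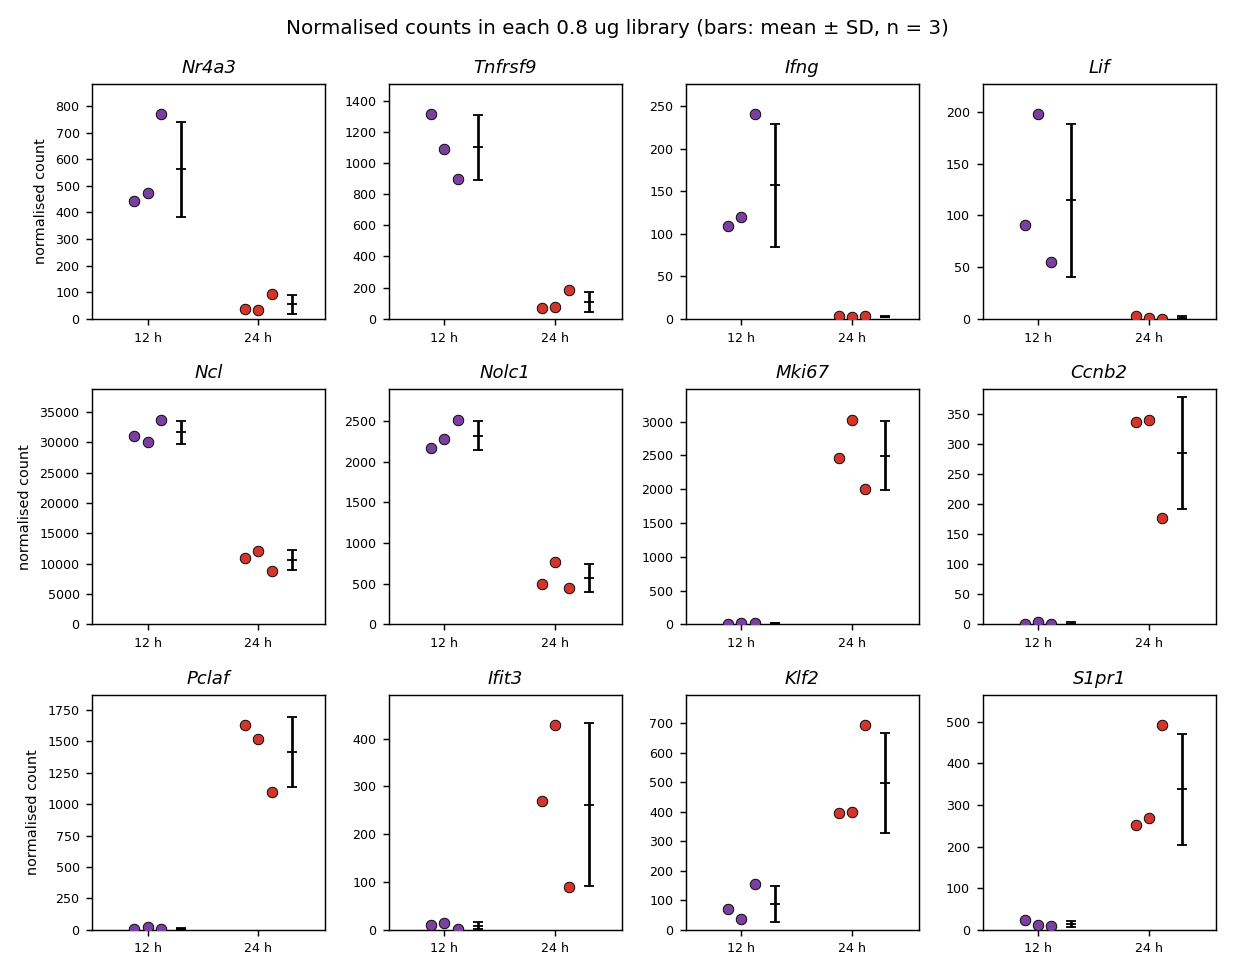
Normalised counts of 12 genes in each 0.8 µg library at 12 h and 24 h; points are libraries and the horizontal marks and bars are means ± SD (n = 3). Nr4a3, Tnfrsf9, Ifng, Lif, Ncl and Nolc1 are lower at 24 h, and Mki67, Ccnb2, Pclaf, Ifit3, Klf2 and S1pr1 are higher, with no overlap in any panel. For some of these genes, no overlap was a condition of the rule that named them.

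Of 32 homing, egress and adhesion genes 20 rose and 1 fell, and the summed level of the list at 24 h lay between those at 12 h and in the control cells. S1pr1, the receptor through which T cells leave lymphoid tissue (chr3:115710433-115715072, minus strand), had 23.5, 11.3 and 8.22 normalised counts at 12 h and 251, 269 and 491 at 24 h, against 1328 in the control group (4.30 ± 0.44, adjusted p = 9.39e-21). Its activator Klf2 (chr8:72319033-72321656, plus strand) was at 70.6, 36.9 and 156 in the 12 h and 397, 401 and 694 in the 24 h libraries, with 1956 in the control group (2.42 ± 0.38, adjusted p = 2.11e-09). No library of a group overlapped with the other group in either gene, and 24 h replicate 3 was the highest in both. The chemokine receptor Ccr7, in contrast, was at 742, 751 and 576 at 12 h and 742, 740 and 788 at 24 h, a log2 fold change of 0.13 ± 0.14 (adjusted p = 0.499). Cxcr3, which guides T cells to inflamed tissue, rose from 6.86, 6.02 and 1.17 to 116, 88.6 and 72.3 (3.96 ± 0.44, adjusted p = 1.16e-16), and Cxcr4 by 3.88 ± 0.58. The member that fell was Gpr183, an oxysterol receptor that positions activated T cells, from 928, 785 and 774 to 334, 380 and 340 (-1.23 ± 0.10, adjusted p = 5.01e-32). Summed homing genes were at 5891, 5702 and 4941 normalised counts at 12 h, 10621, 10330 and 13238 at 24 h and 20362 in the control group.

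Of 39 quiescence and naive identity genes 26 were higher and 1 was lower, with a median of 1.88. Ypel3, a growth-suppressing gene, rose from 8.82, 10.5 and 2.35 to 216, 285 and 420 normalised counts (5.18 ± 0.34, adjusted p = 8.59e-46), and Pik3ip1, an inhibitor of phosphoinositide 3-kinase, from 5.88, 4.51 and 7.04 to 122, 169 and 241 (4.75 ± 0.38, adjusted p = 5e-31). Tsc22d3, the glucocorticoid-induced leucine zipper, went from 9.8, 7.52 and 1.17 to 59.4, 103 and 208 (3.93 ± 0.52). In all 3 genes replicate 3 was the highest 24 h library. Il7r, the receptor for the survival cytokine IL-7, was at 86.3, 108 and 91.6 in the 12 h and 274, 418 and 594 in the 24 h libraries (2.12 ± 0.28, adjusted p = 1.51e-13), still far under the 2627 of the control group. Tcf7, the transcription factor TCF-1 of naive and memory T cells, rose from 1331, 1122 and 1174 to 2586, 2233 and 2167, a change of 0.94 ± 0.12 (adjusted p = 3.28e-13) that lay just under the threshold and was 1.02 without 12 h replicate 1. The member that fell was the genome organiser Satb1, at 6215, 6662 and 3644 at 12 h and 2765, 2683 and 2602 at 24 h (-1.03 ± 0.19, adjusted p = 3.22e-07), which lost its call without 12 h replicate 1, 12 h replicate 2 or 24 h replicate 3. Between 24 and 27 members were higher without each library in turn, and 22 without both replicates 3.

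Components of the T cell receptor complex were among the genes that rose, although Cd4 itself did not pass the test. Cd3e was at 260, 315 and 376 normalised counts at 12 h and at 775, 816 and 886 at 24 h (1.38 ± 0.12, adjusted p = 7.18e-30), near the 911 of the control group. The receptor β-chain constant gene Trbc2 (1.45 ± 0.08), Cd3d (1.41 ± 0.12), Cd3g (1.51 ± 0.18) and the adaptor Skap1 (2.64 ± 0.15) moved alike, so that 12 of 35 members of the list were higher. Cd4 was at 835, 745 and 866 at 12 h and 986, 777 and 1012 at 24 h (0.18 ± 0.13, adjusted p = 0.279), and the groups overlapped. The 2 members that fell were the ubiquitin ligase Cblb, at 760, 778 and 417 and then 292, 224 and 249 (-1.35 ± 0.18, adjusted p = 3.31e-12), and the phosphatase Ubash3a (-1.03 ± 0.25), whose call was lost without 12 h replicate 1, 24 h replicate 2 or 24 h replicate 3. Of the GIMAP GTPases, lymphocyte survival proteins, 8 of 9 rose. Gimap4 increased from 254, 272 and 243 to 1602, 1550 and 1688 (2.64 ± 0.11, adjusted p = 6.73e-128), with libraries of a group close together, and Gimap6 by 2.41 ± 0.14. Dgka, the diacylglycerol kinase that restrains receptor signalling, rose from 114, 81.2 and 121 to 1120, 1060 and 1102 (3.38 ± 0.14, adjusted p = 7.61e-134).

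Of 25 early genes induced by receptor signalling 8 fell, 2 rose and 15 were not called, and the Nr4a family comes first because it reads out the sorting gate. Nr4a3 (chr4:48045153-48086447, plus strand) was at 444, 472 and 769 normalised counts at 12 h and at 37, 31.7 and 93.9 at 24 h, against 3536 at 4 h and 26.1 in the control group. With a log2 fold change of -3.25 ± 0.38 (adjusted p = 8.87e-17) and no overlap, the transcript followed the loss of blue Timer protein by which the 24 h cells were gated, so this value checks the gate. Nr4a1 fell from 449, 535 and 503 to 75.9, 65.3 and 81.6 (-2.63 ± 0.38, adjusted p = 3.96e-11), and Nr4a2 by 1.68 (SE 0.35). Irf8, a transcription factor induced in activated T cells, went from 1866, 2197 and 2236 to 357, 366 and 310 (-2.59 ± 0.14, adjusted p = 4.66e-70), and Irf4, whose level follows signal strength, from 494, 626 and 492 to 127, 129 and 126 (-2.07 ± 0.17, adjusted p = 5.83e-34). The 24 h libraries were almost equal in Irf4 and above the control level of 12.6. Cd69, an early activation marker, was at 105, 187 and 126 in the 12 h and 218, 252 and 242 in the 24 h libraries, a change of 0.75 ± 0.16 that did not pass the threshold, against 2234 at 4 h. The early genes that rose were Fos (1.28 ± 0.48, adjusted p = 0.0209) and Jun (1.23 ± 0.34, adjusted p = 0.00096), of which 0 were called without 24 h replicate 3. Fos also lost its call without 12 h replicate 1, 12 h replicate 3 or 24 h replicate 2. The median of the list was -0.33.

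Of 18 costimulatory receptors and ligands 5 fell and 3 rose, with a median of -0.26, and in the list of IL-2, its receptor and cytokine feedback genes 8 of 17 members fell and 1 rose. Tnfrsf9, which encodes 4-1BB, dropped from 1312, 1089 and 896 normalised counts to 67.2, 75.5 and 184 (-3.23 ± 0.36, adjusted p = 5.83e-18), and Tnfrsf4, which encodes OX40, from 525, 553 and 286 to 108, 66.2 and 103 (-2.27 ± 0.23, adjusted p = 3.61e-21). Il2ra, the high-affinity IL-2 receptor chain, was at 826, 1099 and 736 in the 12 h and 215, 265 and 307 in the 24 h libraries (-1.74 ± 0.23, adjusted p = 6.46e-13), above the 50.5 of the control group. Cish, a STAT5-induced feedback inhibitor, showed the steepest fall of the IL-2 list, from 579, 601 and 494 to 38.9, 28 and 67.1 (-3.61 ± 0.20, adjusted p = 2.77e-67), and Pim3 and Socs1 fell by 2.5 (SE 0.21) and by 1.97 (SE 0.39). The member of the IL-2 list that rose was Bcl6 (1.49 ± 0.26). The costimulatory genes that rose were these: Slamf6, a homotypic receptor of naive and memory T cells, rose from 119, 97 and 123 to 869, 931 and 885 (2.98 ± 0.16, adjusted p = 5.94e-73), Cd28 rose from 473, 494 and 490 to 1064, 1049 and 1115 (1.14 ± 0.10), and Cd82 by 1.16 ± 0.24, a call lost without 12 h replicate 2. Icos was at 561, 542 and 337 and then at 663, 689 and 550, with overlap and no call (0.40 ± 0.18, adjusted p = 0.0651).

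Effector cytokine and cytotoxic genes changed in both directions, and the cytokine genes Ifng and Lif were detected at 12 h and near or under the floor at 24 h. Ifng, the interferon-γ gene (chr10:118441046-118445892, plus strand), had 110, 120 and 241 normalised counts at 12 h and 2.92, 1.86 and 3.1 at 24 h. It was at least 50.7-fold lower, or at least 37.1-fold without 12 h replicate 3, and 25.9% of its exon length overlaps another annotated gene on the same strand. Lif, an IL-6 family cytokine (chr11:4257557-4272514, plus strand), was at 91.2, 198 and 55.2 and then at 2.92, 0.932 and 0, at least 37-fold lower, or at least 23.6-fold without 12 h replicate 2. For both the 24 h libraries were at or under the floor of 3 counts, so their true fold is not bounded from above. Granzyme B, Gzmb, went from 43.1, 61.7 and 27 to 9.73, 11.2 and 4.13 (-2.23 ± 0.48, adjusted p = 2.14e-05), and the death ligand Fasl from 40.2, 57.9 and 31.7 to 17.5, 10.3 and 6.19 (-1.87 ± 0.36). Rising members were the chemokine Ccl5, from 0.98, 3.76 and 2.35 to 45.8, 35.4 and 57.8 (3.61 ± 0.66, adjusted p = 9.05e-07), the death ligand Tnfsf10 (2.64 ± 0.42), Gzma (1.36 ± 0.53, a call lost without 12 h replicate 2 or 3 or 24 h replicate 2 or 3) and the cytokine subunit Ebi3, at the floor at 12 h and at least 12.5-fold higher. Of 27 genes listed, 21 were tested, 8 fell and 4 rose. In 11 of these a group was at the floor, and the median of -0.96 became -0.24 with 7 genes set to their bounds.

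Among lineage and memory transcription factors 8 of 34 rose and 8 fell. The T-box factors of Th1 and cytotoxic cells were lower: Eomes went from 325, 323 and 265 normalised counts to 33.1, 30.8 and 53.7 (-2.89 ± 0.34, adjusted p = 2.17e-16), and Tbx21 from 86.3, 70 and 38.7 to 29.2, 16.8 and 6.19 (-1.84 ± 0.32, adjusted p = 6.39e-08). Bhlhe40, a regulator of cytokine production, and Ahr, a ligand-activated factor, fell by 2.87 (SE 0.32) and 2.89 (SE 0.32). Higher at 24 h was Myb, a factor of stem-like T cells, at 107, 73 and 103 and then at 427, 381 and 499 (2.20 ± 0.17, adjusted p = 1.01e-35). Ikzf2, which encodes Helios, rose from 422, 363 and 402 to 1312, 1159 and 1890 (1.86 ± 0.19, adjusted p = 1.13e-20), above the control level of 196. Foxp3, the defining factor of regulatory T cells, was at 10.8, 20.3 and 3.52 in the 12 h and 75.9, 48.5 and 193 in the 24 h libraries (2.95 ± 0.49, adjusted p = 1.74e-08), with 24 h replicate 3 far above the others and with 18.6% of its exon length overlapping the non-coding gene Flicr on the same strand and 26.9% overlapping genes on the opposite strand. The summed regulatory T cell marker list was at 434 to 680 CPM at 12 h and 518 to 883 CPM at 24 h, with a median log2 fold change of 1.38 over its 9 members. Of these, Il2ra (267 and 71.7 CPM on average) and Tnfrsf18 (143 and 77.2 CPM) had lower means at 24 h and the other 7 had higher ones, such as Ctla4 (12.4 and 30.9 CPM) and Capg (3.62 and 21.8 CPM). The part of such cells in these values was not tested. Gata3, the Th2 factor, was at 303, 307 and 393 in the 12 h and 262, 342 and 320 in the 24 h libraries, which overlap (-0.11 ± 0.15, adjusted p = 0.569).

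Among coinhibitory receptors and cytokine receptors more members rose than fell, and many were not called. Cd5, a negative regulator set by signal strength, was at 73.5, 49.6 and 37.6 normalised counts at 12 h and at 382, 354 and 521 at 24 h (2.93 ± 0.18, adjusted p = 1.63e-54), near the control level of 401. Cd96 increased by 2.20 ± 0.21 and Izumo1r, the folate receptor 4 gene of regulatory and anergic T cells, by 1.63 ± 0.22, whereas Cd160 fell from 178, 139 and 202 to 38.9, 28 and 51.6 (-2.09 ± 0.32, adjusted p = 7.04e-10) and Cd200 by 1.46 (SE 0.26). In all, 8 of 18 coinhibitory receptors rose and 2 fell. Of 32 cytokine receptors 13 rose and 3 fell, the latter including Il12rb2, the inducible IL-12 receptor chain, at 53.9, 96.3 and 24.7 and then at 7.79, 5.59 and 3.1 (-3.19 ± 0.50, adjusted p = 3.68e-09), a gene with 40% of its exon length overlapping another gene on the opposite strand. The interferon-γ receptor Ifngr1 (1.73 ± 0.22) and Il17ra (1.86 ± 0.21) rose.

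The fall of ribosome biogenesis genes was the broadest among lists that decreased. Polr1b, a subunit of RNA polymerase I (chr2:129100995-129126594, plus strand), was at 198, 181 and 202 normalised counts at 12 h and at 20.4, 29.8 and 24.8 at 24 h (-2.90 ± 0.22, adjusted p = 4.34e-38), and Urb1, a pre-ribosome assembly factor, at 136, 144 and 148 and then at 15.6, 17.7 and 10.3 (-3.20 ± 0.30, adjusted p = 2.75e-25). Rrp9 (-2.52 ± 0.14), Ppan (-2.58 ± 0.15) and Rrp15 (-2.47 ± 0.17), which process or assemble pre-ribosomal RNA, fell as well, and the 24 h libraries lay under the 12 h libraries in each. The abundant nucleolar protein genes were chosen after their values were seen: nucleolin, Ncl, went from 31074, 30127 and 33732 to 10890, 12021 and 8792 (-1.58 ± 0.08, adjusted p = 2.73e-75), and Nolc1 from 2167, 2286 and 2516 to 498, 763 and 449 (-2.02 ± 0.14, adjusted p = 1.37e-47). The summed list was at 105792, 105955 and 113379 normalised counts at 12 h, at 37072, 40866 and 30865 at 24 h, at 132438 at 4 h and at 18223 in the control group. Of 74 members 65 fell and 0 rose, and 64 to 65 fell without each library in turn. The genes for the ribosomal proteins themselves did not follow: the summed list of 88 genes, of which 87 were tested, was at 260807, 258200 and 246266 in the 12 h and 242832, 249387 and 246323 in the 24 h libraries, and the exception that was called, Rpl7l1 (-1.50 ± 0.12), encodes a ribosomal protein paralogue.

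As an example of a promoter in this list, that of Nop2, a ribosomal RNA methyltransferase (chr6:125131633-125131932, plus strand, RefSeq, GRCm38.p6), is shown with the E-box CACGTG, to which Myc and Max bind, in capitals.
Nop2: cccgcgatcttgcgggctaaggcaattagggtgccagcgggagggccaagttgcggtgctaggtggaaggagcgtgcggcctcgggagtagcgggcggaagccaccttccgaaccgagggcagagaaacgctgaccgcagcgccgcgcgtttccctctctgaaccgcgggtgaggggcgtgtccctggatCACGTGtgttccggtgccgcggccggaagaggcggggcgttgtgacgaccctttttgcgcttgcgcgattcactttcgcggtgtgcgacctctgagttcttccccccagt
The E-box letters were in 13 of 72 promoters of ribosome biogenesis genes (18.1%), in 10.3% of promoters of all genes tested, in 15.9% of those of genes that fell and in 8.13% of those of genes that rose. Nop2, chosen after its values were seen, fell from 627, 527 and 703 normalised counts to 105, 172 and 116 (-2.22 ± 0.16, adjusted p = 6.13e-41).

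Myc was at 139, 266 and 156 normalised counts at 12 h and at 40.9, 35.4 and 27.9 at 24 h (-2.39 ± 0.24, adjusted p = 1.7e-21), after 918 at 4 h and with 53.8 in the control group. Members of the same network that oppose Myc rose in the same libraries. Mxd4, a Max-binding repressor, went from 2.94, 9.78 and 7.04 to 617, 451 and 928 (6.42 ± 0.35, adjusted p = 3.69e-66), Mxd3 from 0, 6.02 and 0 to 95.4, 85.8 and 73.3 (3.95 ± 0.90, adjusted p = 0.000196), and Mxd1 and Mxi1 by 1.93 ± 0.36 and 1.70 ± 0.39. Tfap4, a factor that prolongs Myc-driven growth, fell by 1.69 (SE 0.30). Among 12 network members tested 5 rose and 2 fell.

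Of 32 chaperones 25 fell and 0 rose. Hspd1, the mitochondrial chaperonin, went from 4315, 4205 and 5514 normalised counts to 1122, 1399 and 857 (-2.03 ± 0.21, adjusted p = 2.23e-20), and Hsph1, a heat shock co-chaperone, from 1527, 1488 and 3607 to 363, 574 and 298 (-2.33 ± 0.38, adjusted p = 1.02e-08), with 12 h replicate 3 far above its group. The summed chaperone level of that library was 94410 against 74986 and 73977 in replicates 1 and 2, and 19 chaperones fell without both replicates 3. The fall of the stress-inducible Hspa1b (-2.64 ± 0.98, adjusted p = 0.0293) rested on that library, and without it the value was -0.66. Of the translation factors 21 of 57 fell and 2 rose, with Eef1e1, a tRNA synthetase complex scaffold, at 363, 398 and 289 and then at 25.3, 51.3 and 40.3 (-3.13 ± 0.22, adjusted p = 9.55e-43), and the cap-binding protein Eif4e at 688, 674 and 667 and then at 199.6, 258 and 171 (-1.68 ± 0.12). In the list of amino acid transporters, ATF4 targets and tRNA synthetases 20 of 44 fell, among them Slc7a5, the large neutral amino acid transporter (124, 101 and 69.3 to 33.1, 8.39 and 12.4; -2.37 ± 0.34), and Bcat1, a branched-chain aminotransferase (310, 283 and 370 to 53.5, 50.4 and 41.3; -2.69 ± 0.21), which was at 1.16 in the control group. The 2 members of this list that rose were Ddit3, a stress-induced transcription factor (1.05 ± 0.32), whose call was lost without 12 h replicate 2 or 24 h replicate 3, and the transporter gene Slc43a3 (2.12 ± 0.41). Leaving out each library in turn gave 19 to 25 members that fell, and library totals as size factors gave 26.

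Genes of nucleotide synthesis changed in both directions, and few glycolysis genes were called. In the purine and pyrimidine list 12 of 35 members fell, such as the one-carbon enzymes Shmt1 (-2.32 ± 0.13) and Mthfd1 (-1.73 ± 0.16) and CTP synthase Ctps, at 385, 364 and 375 and then at 126, 69.9 and 93.9 normalised counts (-1.95 ± 0.16, adjusted p = 2.67e-32). The 7 that rose included the enzymes of deoxynucleotide supply Rrm2, Tk1 and Tyms given above and Ctps2, the second CTP synthase (2.14 ± 0.31). Among glycolysis genes Hk2, the inducible hexokinase, fell from 562, 612 and 439 to 94.4, 58.7 and 61.9 (-2.84 ± 0.30, adjusted p = 1.57e-20), while Hk1, the constitutive hexokinase, rose from 144, 106 and 109 to 315, 419 and 272 (1.47 ± 0.19, adjusted p = 6.89e-14), and 2 of 31 genes rose (6.45%) and 4 fell (12.9%) in all, against 17.1% and 9.48% of all genes tested. Without 12 h replicate 3 or 24 h replicate 3, 2 glycolysis genes fell, and over all libraries left out in turn 2 to 4 rose and 2 to 4 fell. Sterol and fatty acid genes were higher in 16 of 35 cases and lower in 3. Abcg1, a cholesterol exporter, rose by 3.12 ± 0.41, Scd2, a fatty acid desaturase, from 92.1, 94 and 101 to 449.8, 419 and 444 (2.18 ± 0.17, adjusted p = 3.06e-35) and Insig1, a sterol sensor, by 2.09 ± 0.29, whereas fatty acid synthase Fasn fell by 1.36 (SE 0.14).

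Survival genes and feedback regulators moved both ways. The anti-apoptotic Bcl2l1 went from 185, 186 and 235 normalised counts to 69.1, 59.7 and 78.5 (-1.53 ± 0.19, adjusted p = 4.09e-14), and the pro-apoptotic Bid fell too (-1.34 ± 0.30), whereas Bad rose (1.72 ± 0.36) together with Trp53inp1, a p53-induced nuclear protein, at 10.8, 9.78 and 7.04 and then at 572, 533 and 695 (5.70 ± 0.42, adjusted p = 1.2e-38). In total 6 of 27 rose (22.2%) and 5 fell (18.5%), against 17.1% and 9.48% of all genes tested. Of 39 feedback phosphatases, ligases and inhibitors of NF-κB, 10 rose and 9 fell. Dusp5, a nuclear phosphatase of ERK, decreased from 894, 996 and 917 to 138, 119 and 148 (-2.78 ± 0.14, adjusted p = 7.95e-90), and Tnip3, an inhibitor of NF-κB signalling, from 102, 175 and 30.5 to 3.89, 5.59 and 7.23 (-3.74 ± 0.59, adjusted p = 4.04e-09), with no overlap despite the spread at 12 h. Zc3h12d, an RNA-degrading regulator of cytokine transcripts, rose from 27.4, 21.8 and 14.1 to 132, 135 and 145 (2.63 ± 0.24, adjusted p = 4.89e-26). Of the DNA methylation and Polycomb enzymes 5 of 27 rose (18.5%) and 2 fell (7.41%), near the 17.1% and 9.48% of all genes tested. Uhrf1, which maintains methylation behind the replication fork, was at 142, 112 and 161 and then at 626, 616 and 469 (2.04 ± 0.19, adjusted p = 1.57e-25). The demethylase Kdm6b was at 325, 281 and 402 and then at 76.9, 84.9 and 135 (-1.75 ± 0.16, adjusted p = 3.95e-27).

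Some of the genes with the largest changes lay outside these lists. Lockd, a long non-coding RNA beside the CDK inhibitor gene Cdkn1b, was at the floor at 12 h and at 278, 243 and 168 normalised counts at 24 h, at least 65.3-fold higher, and the cohesin acetyltransferase Esco2 was at least 36.2-fold higher. Among genes that fell, the spermidine synthase Srm was at 1270, 1173 and 1312 in the 12 h and 139, 216 and 127 in the 24 h libraries (-2.93 ± 0.17, adjusted p = 3.86e-65), and Txnrd3, a thioredoxin reductase, at 122, 89.5 and 92.8 and then at 6.81, 7.46 and 9.29 (-3.53 ± 0.34, adjusted p = 9.45e-23). Sema7a, a membrane semaphorin, fell from 80.4, 119 and 122 to 4.87, 11.2 and 3.1 (-3.79 ± 0.42, adjusted p = 3.77e-17), and Qtrt2, a subunit of a tRNA-modifying enzyme, by 3.09 (SE 0.25). None of these 6 genes overlapped between the groups, which was a condition of the rule for the largest fold changes.

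The 12 h to 24 h change can be placed in the course of the low dose by the same fit, although comparisons that share the 12 h or the 24 h libraries are given side by side only. The Timer gate changed between 4 h and 12 h as well. From 4 h to 12 h, 54 of 61 DNA replication genes were higher and 0 lower and 40 of 73 mitosis genes were higher and 1 lower, whereas 2 of 74 ribosome biogenesis genes had fallen by 12 h and 19 of the 25 early genes had. Of all 12331 genes tested between 4 h and 12 h, 12.6% were higher and 7.98% were lower. At 24 h against the control, 70 of 73 mitosis genes, 60 of 61 DNA replication genes, 29 of 60 interferon-stimulated genes and 15 of 74 ribosome biogenesis genes were higher and 0 members of these lists were lower, while 14 of 39 quiescence genes and 11 of 32 homing genes were lower and 0 and 2 were higher. Of all 12628 genes tested in this comparison 11.5% were higher and 5.84% were lower. Mcm2 was at 119 normalised counts in the control group, 196 at 4 h, 978 at 12 h and 620 at 24 h, and Mki67 at 35.8, 10.3, 17.4 and 2499. The summed early genes were at 29017 normalised counts at 4 h, 8318 at 12 h and 4276 at 24 h.

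**Figure D4:**
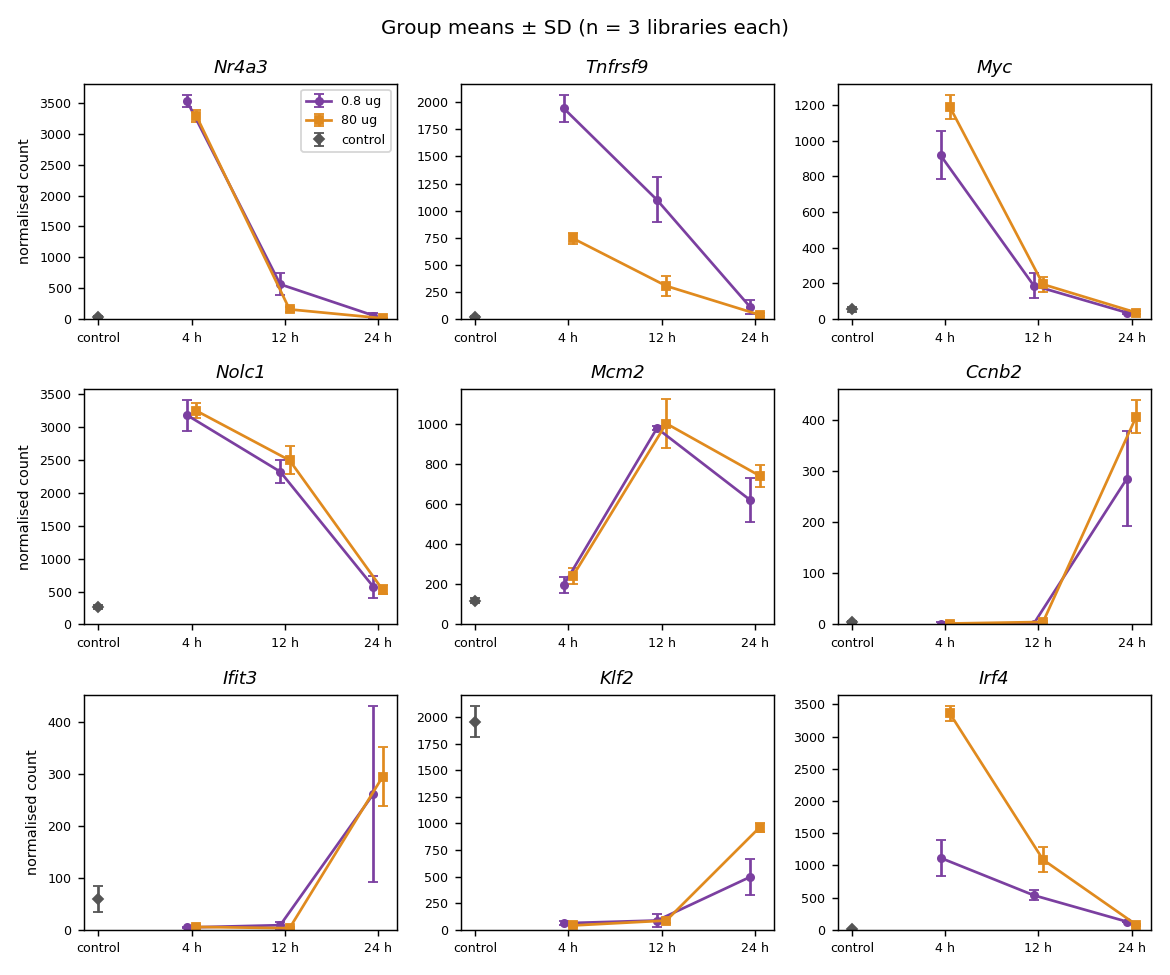
Mean ± SD (n = 3) of normalised counts of 9 genes in the control group and at 4 h, 12 h and 24 h after 0.8 µg or 80 µg of peptide; times are drawn as evenly spaced categories. Mcm2 has risen by 12 h and Ccnb2 by 24 h at both doses, and Nr4a3, Tnfrsf9 and Myc are highest at 4 h after 0.8 µg.

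The same interval after the high dose, measured in 6 other libraries and with the same pair of gates, was used to ask which changes differed with dose. After 80 µg, 2213 genes were higher and 1388 lower at 24 h than at 12 h, and over the 12925 genes tested at the low dose the unshrunken changes at the 2 doses had a Pearson correlation of 0.775, which describes genes that are not independent. Of those 12925 genes, 2210 rose and 1387 fell after 80 µg. Genes that rose at both doses numbered 1652 (74.8% of those that rose after 0.8 µg and the same share of those that rose after 80 µg), and 911 fell at both (74.4% of those that fell after 0.8 µg and 65.7% of those that fell after 80 µg). List medians were alike for ribosome biogenesis (-1.69 at 0.8 µg and -1.83 at 80 µg), interferon-stimulated (2.72 and 2.91) and chaperone genes (-1.33 and -1.43), and were 3.71 and 2.88 for mitosis genes. The difference of the changes (0.8 µg change minus 80 µg change, unshrunken) was tested in the same fit, and 139 of 9663 genes (1.44%) were called, 79 with a more positive change at 0.8 µg and 60 with a more negative one. The larger side turned with adjusted p alone (114 above 0, 141 below) and without 12 h replicate 3 at 0.8 µg (76 above, 89 below). It also turned without 12 h replicate 1 at 80 µg (72 above, 74 below). Of the mitosis genes, 11 had a called difference, all above 0. In 2 of these, Kif4 and Ska1, every 12 h library at 0.8 µg was at the floor, so the size of the difference is not measured.

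In several of these genes the doses were already apart at 12 h. Pclaf was at 10.5 ± 7.2 normalised counts (SD, n = 3) at 12 h after 0.8 µg and at 137 after 80 µg, and at 1417 ± 281 and 2019 at 24 h, a difference of 3.08 on the log2 scale. Birc5 (7.55 ± 1.11 after 0.8 µg and 40.5 after 80 µg at 12 h) and Rrm2 (27.5 ± 4.99 and 115) had differences of 1.64 and 1.30. Irf4 fell less steeply after the low dose: it was at 537 ± 76.7 at 12 h and 127 ± 1.44 at 24 h after 0.8 µg, and at 1089 and 79 after 80 µg, a difference of 1.69 (adjusted p = 1.3e-09). Cd5 was at 53.6 ± 18.3 at 12 h after 0.8 µg and at 171 after 80 µg, with a difference of 1.25. Gata3 went the other way, with no called change after 0.8 µg (334 ± 51.1 and 308 ± 41.5) and a rise from 65.5 to 467 after 80 µg, a difference of -2.95 (adjusted p = 1.4e-36). Gpr183 fell after 0.8 µg (829 ± 86.1 to 351 ± 25.4) and was at 559 and 539 after 80 µg, a difference of -1.18. The calls of these 7 genes held without each of the 12 libraries in turn.

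**Figure D5:**
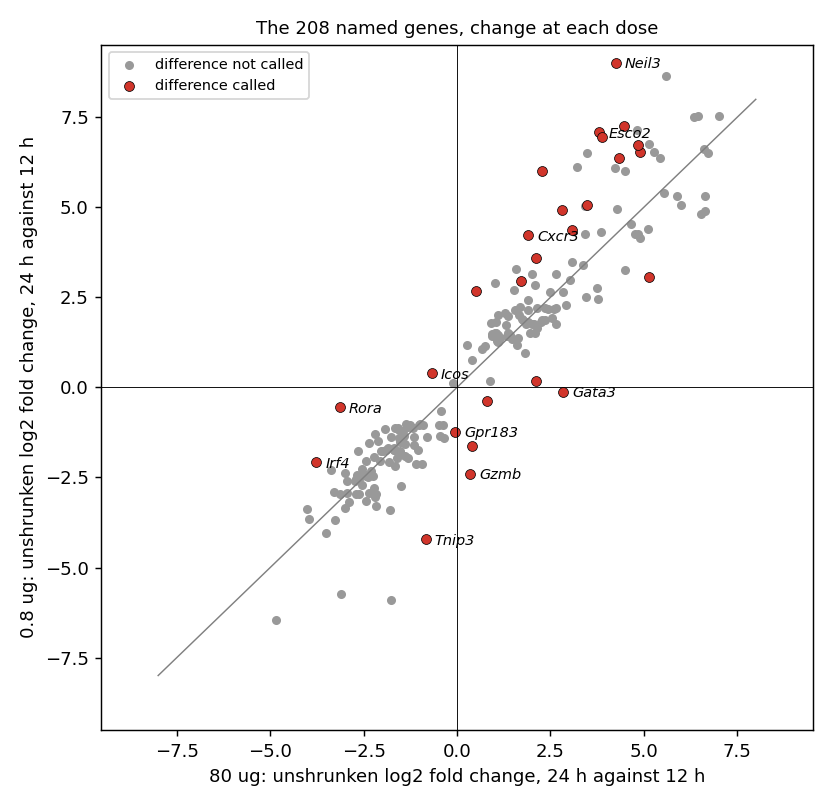
Change from 12 h to 24 h (unshrunken log2) of the 208 genes named by rule, after 80 µg on the x axis and after 0.8 µg on the y axis; red points are the 26 genes whose difference between doses was called, of which Neil3, Ska1, Esco2 and Kif4 were at the floor at 12 h after 0.8 µg and have no measured size on the y axis. Most points lie along the diagonal, and Gata3 is far below it while Pclaf is above.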

How the data were processed

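RNA of sorted CD4+ T cells was measured by QuantSeq 3′ mRNA sequencing in 21 samples, 7 groups of 3 mice. To make the deposited counts, the authors merged reads over lanes, trimmed them with Bbduk, aligned them with STAR 2.5.2a to GRCm38 and assigned them to genes with HTSeq-count. The annotation release and strand setting of that step are not given in the sources used here, so reads from genes that share exon sequence (15 of the 208 genes named by rule on the same strand, 60 on the opposite) may be mixed. The deposited log2 values, rlog values made by the authors with DESeq2, gave the principal components and distances.

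DESeq2 1.42.0 (R 4.3.3) was used for the tests, after the study's methods. Of 47643 genes, the 15300 with at least 10 counts over all samples entered 1 fit of all 21 samples with a coefficient per group, with normal shrinkage of the log2 fold changes. A gene was called at a Benjamini-Hochberg adjusted p under 0.05 and an absolute log2 fold change above 1. The difference between doses was an unshrunken contrast of that fit under the same thresholds. Normalised counts are counts over size factors, errors beside fold changes are SE, and the floor of 3 counts per library and its bounds cover counting error only. The code was tested on simulated data.

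Named by rule were the 15 genes each way with the largest fold change (mean of at least 50 normalised counts, no overlap), up to 4 called genes each way per list (mean of at least 20), a set of activation and identity genes, and the 6 each way with the largest difference between doses. The comparison, the lists and these genes were chosen with earlier results of these data known. Alternatives were edgeR 4.0.16 (quasi-likelihood test), other scalings, filters and thresholds, fewer samples, thinned counts, a replicate block, a sex covariate and leaving out libraries, the last 2 partly chosen after seeing the data. Locations are from GENCODE vM21 on GRCm38. Some genes are not reported here.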

Additional observations from a re-analysis of the deposited data

Results flagged for a closer look

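For 26 of the genes named by rule the change from 12 h to 24 h differed between the 0.8 µg and 80 µg doses when the difference itself was tested in the DESeq2 fit (0.8 µg change minus 80 µg change, on the log2 scale, 3 libraries in each of the 4 groups). In 18 of them the difference was above 0. These genes were picked in part for the size of that difference or of the change after 0.8 µg, so their count and direction follow partly from the choice. Over all genes 139 of 9663 (1.44%) were called, 79 above and 60 below 0. With adjusted p alone 114 were above 0 and 141 below. Of the 26 genes, 8 lost their call in libraries thinned to the smallest total, 4 without a filter, 4 with the replicate block and 3 with the sex covariate. With at least 10 counts in 3 samples 2 lost it, with the 12 samples alone 2 and with edgeR 1. The test for a single outlying library in a gene was not run, since it needs groups of at least 4.

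Genes of the cell cycle were among those above 0. The differences were 3.08 for Pclaf, 2.13 for Ccne2, 2.02 for Knl1, 1.88 for Cenpf, 1.64 for Birc5, 1.6 for E2f2, 1.47 for Clspn and 1.3 for Rrm2. In 4 more genes every 12 h library at 0.8 µg was at or under the floor of 3 counts, so the fitted values depend on how the fit treats such counts and do not measure the size of the difference: 4.77 for the DNA glycosylase Neil3, 3.74 for the spindle gene Ska1, 3.27 for Esco2 and 2.79 for Kif4. Those of Pclaf, Knl1, Birc5, E2f2 and Rrm2 were called without each of the 12 libraries in turn, while Kif4 lost its call without any of 9 libraries, Cenpf without any of 8, Neil3 without any of 6, Esco2 and Clspn without any of 5, Ska1 without 12 h replicate 3 at 0.8 µg or 24 h replicate 3 at 80 µg (2.99 to 4.3 over the 12), and Ccne2 without 24 h replicate 2 at 0.8 µg.

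Genes of T cell function above 0 were the Th17-associated factor Rora with 2.58, the chemokine receptor Cxcr3 with 2.32, Zc3h12d with 2.17, Irf4 with 1.69, Cd5 with 1.25 and Icos with 1.08. Zc3h12d, Irf4 and Cd5 were called without each library in turn, whereas Rora lost its call without any of 7 libraries (2.11 to 3.47), Icos without any of 3 and Cxcr3 without 12 h replicate 3 at 0.8 µg or 24 h replicate 3 at 80 µg. Rora was at 110, 247 and 28.2 normalised counts at 12 h after 0.8 µg, and had a mean of 886 at 12 h after 80 µg.

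The 8 differences below 0 were -3.37 for Tnip3, -2.95 for Gata3, -2.74 for Gzmb, -2.07 for Gm20559, -2.05 for the GTPase-activating protein Tagap, -1.96 for the flippase Atp8b4, -1.18 for Gpr183 and -1.18 for Stat4. Gata3, Tagap, Atp8b4 and Gpr183 were called without each library in turn. Gzmb lost its call without any of 4 libraries (-3.06 to -2.24), Gm20559 without any of 5 (-3.41 to -1.55), Tnip3 without any of 3 (-3.82 to -2.74) and Stat4 without 12 h replicate 2 at 0.8 µg.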

How the results depend on the processing

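The 3434 genes called between 12 h and 24 h became 3622 with edgeR, 3468 with library totals as size factors, 3293 with the 6 samples alone, 3285 without a filter and 3276 in libraries thinned to the smallest total. Library totals moved the median of all genes by -0.13, to -0.00414, and the share of calls that were higher from 64.3% to 56.2%. With adjusted p alone 5689 genes passed, 3222 higher and 2467 lower. Leaving out each library in turn gave 3109 to 3395 calls (1977 to 2181 higher, 1113 to 1219 lower), of which 2939 to 3112 were among the 3434, and 0 of the 3434 were called the other way under any alternative. The 139 differences between doses became 255 with adjusted p alone (141 below 0) and 101 to 165 without each library in turn (53 to 86 above 0, 46 to 89 below). The replicate numbers of the labels did not pair the samples (correlations of deviations of 0.0702, -0.0691 and 0.0123), and the replicate block gave 3371 calls and 123 differences. The distance of the groups on the first component was 61.7, and 98.3 with all genes. Changes of sign occurred only among named genes that were not called: Ccr7 was at -0.0103 with library totals and ran from -0.00934 (without both replicates 3) to 0.20 when libraries were left out, Atp8b4 was at -0.0417 in thinned libraries, Rora ran from -1.31 to 0.29 (without 12 h replicate 2) and Gata3 from -0.19 to 0.0144 (without 12 h replicate 3), and the cause was not tested. With 3 libraries a group and totals of 3134516 to 4265658 counts at 12 h, genes near the floor of 3 counts are measured as bounds only.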
